A study of Mus musculus with 7 samples.

Results

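Ctcf and cohesin with its regulators were examined in mouse embryonic fibroblasts (MEFs) with and without a large deletion on chromosome 4. The group consists of 10 genes chosen by name, Ctcf, Smc1a, Smc3, Rad21, Stag1, Stag2, Nipbl, Pds5a, Pds5b and Esco2. They were looked up by Ensembl identifier, and 10 of 10 were found among the 15531 genes of the combined RNA-seq table.

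CTCF is a zinc finger protein that binds DNA and stops cohesin as it extrudes chromatin loops, which leaves loop ends and domain borders at CTCF sites. Cohesin is a ring of Smc1a, Smc3 and Rad21 with a Stag subunit, and it also holds sister chromatids together from S phase until anaphase. Nipbl promotes loading of the ring and loop extrusion, the Pds5 proteins regulate its release and acetylation, and Esco2 acetylates Smc3 during S phase.

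The RNA-seq data came from 7 primary MEF lines taken from F1 hybrid embryos at embryonic day 13.5 and used confluent at passage 4. In the 4 Df/+Bl6 lines the chromosome 4 of 129S5/SvEvBrd origin carried an engineered deletion of 4.3 Mb in region 4E2, and the homologue from C57BL/6J was intact. The 3 +129/+Bl6 lines had the same hybrid background with an intact chromosome 4 from each strain. Df/+Bl6 embryos came from male chimeras, with cells that held the deletion and its reciprocal duplication, crossed to C57BL/6J females. The +129/+Bl6 embryos were F1 controls of C57BL/6J and 129S5/SvEvBrd (129S5 below). No litter, batch or sex is given for the lines.

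Every level below is the authors' mean normalized count for a genotype, for which no value per line was used, so no SD can be given and the depth of each line is unknown. A gene is called differentially expressed (DE) where the authors' DESeq test between the lines passed a false discovery rate of 0.05, and means were read only for such genes. Log2 ratios were computed here from the pairs of means and are given as Df/+Bl6 over +129/+Bl6.

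In the combined comparison, in which reads of both alleles were summed, 10 of 10 genes of the group were DE and all 10 were higher in Df/+Bl6 MEFs. Of all 15531 genes, 8.67% were DE in either direction, 5.13% were higher (796 genes) and 3.54% were lower (550 genes). The members and the lists below were chosen with earlier results of these data known, so 10 of 10 does not describe an unselected group. The median log2 ratio of the 10 genes was 0.63, with a range of 0.50 to 1.55, and that of the 796 higher genes was 0.80. Only Smc3, Pds5b and Esco2 lay above the median of the 796 genes. In +129/+Bl6 mean, by contrast, 9 of the 10 lay above the median of the 796, which was 1898, and Esco2 lay below. The 796 genes are only those called DE, and no ratio was compared among genes of like level. In bulk RNA a larger share of cells that express a gene and more RNA per cell cannot be told apart.

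**Figure D1:**
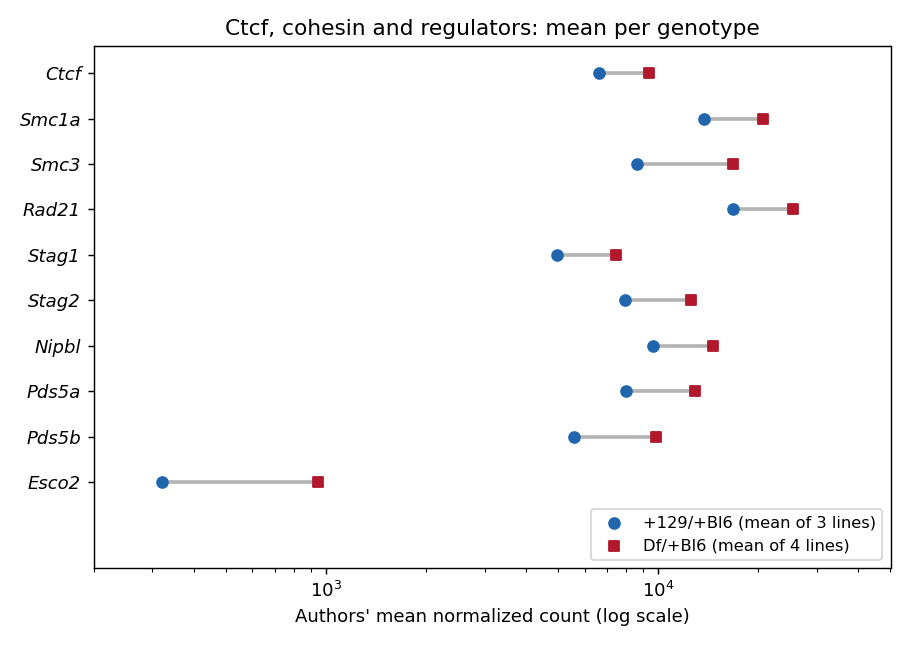
Mean normalized count (log axis) of Ctcf, the cohesin subunits and the regulators in the 3 +129/+Bl6 lines (circles) and the 4 Df/+Bl6 lines (squares). Each point is a mean over lines without an error bar; all 10 genes are higher in Df/+Bl6, and Esco2 has the longest step. Counts are not divided by length, so points are compared within a gene only.

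Ctcf (ENSMUSG00000005698, chr8:105636474-105682922) had a mean of 9366 normalized counts in Df/+Bl6 MEFs and 6623 in +129/+Bl6 MEFs. Its log2 ratio of 0.50, or 1.41-fold, was the smallest of the 10. Only 0.879% of the 796 higher genes had a smaller ratio. Ctcf was thus DE with a change near the lower end of those called, where the smallest log2 ratio of any higher gene was 0.47. Its +129/+Bl6 mean was above that of 84.2% of the 796 genes, and it was not compared with genes of like level.

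The subunits of the cohesin ring did not move by the same amount. Smc1a (ENSMUSG00000041133, chrX:152016428-152061973), the ATPase subunit that pairs with Smc3, had means of 20597 in Df/+Bl6 and 13750 in +129/+Bl6 MEFs. Its log2 ratio was 0.58. Rad21 (ENSMUSG00000022314, chr15:51962604-51993538), the kleisin that closes the ring and is cut at anaphase, had means of 25395 and 16795 in the same order. Its log2 ratio of 0.60 (1.51-fold) lay next to that of Smc1a. Smc3 (ENSMUSG00000024974, chr19:53600396-53645831), the subunit that Esco enzymes acetylate, had means of 16822 and 8637. This was a log2 ratio of 0.96, or 1.95-fold, and 67.2% of the 796 higher genes had a smaller one, against 11.1% for Smc1a and 13.3% for Rad21.

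The Stag subunits, which bind Rad21 and contact CTCF, occur as alternatives in cohesin. Stag1 (ENSMUSG00000037286, chr9:100597709-100958544) had means of 7477 in Df/+Bl6 and 4964 in +129/+Bl6 MEFs, giving a log2 ratio of 0.59. Stag2 (ENSMUSG00000025862, chrX:42149297-42277186) had means of 12514 and 7967, a log2 ratio of 0.65. The paralogues therefore changed by similar factors, 1.51-fold and 1.57-fold. The median over the 5 core subunits was 0.60, with Smc3 alone above 0.80.

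Nipbl (ENSMUSG00000022141, chr15:8289824-8465315), the large subunit of the loader, followed Smc1a and Rad21 closely in size of change. Its means were 14646 in Df/+Bl6 and 9664 in +129/+Bl6 MEFs, giving a log2 ratio of 0.60 (1.52-fold). Its partner Mau2 was in the count table but not among the DE genes, and no value of it was used here. Absence from the list does not show that a gene was unaltered.

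Among the regulators that act on the loaded ring, Pds5b changed by more than Pds5a. Pds5a (ENSMUSG00000029202, chr5:65605719-65698236) had means of 12893 in Df/+Bl6 and 8017 in +129/+Bl6 MEFs, giving a log2 ratio of 0.69 (1.61-fold). Pds5b (ENSMUSG00000034021, chr5:150673713-150810669) had means of 9863 and 5565, a log2 ratio of 0.83 (1.77-fold). For Pds5a 30.9% of the 796 higher genes had a smaller ratio, and for Pds5b 53.8%.

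Esco2 (ENSMUSG00000022034, chr14:65819027-65833969) stood apart from the other 9 in level per kb, given below, and in size of change. Its means were 944.8 in Df/+Bl6 and 321.9 in +129/+Bl6 MEFs, giving a log2 ratio of 1.55 or 2.93-fold. It ranked 31 among the 796 higher genes by log2 ratio, and 96.1% of them had a smaller one. Its +129/+Bl6 mean was near the low end of the same genes, with only 8.17% lower, so this rank is not one among genes of like level. Without Esco2 the median log2 ratio of the group was 0.60. The genes with a log2 ratio of 0.58 to 0.69 were 6 of the 10, namely Smc1a, Stag1, Rad21, Nipbl, Stag2 and Pds5a. No difference in ratio between genes of the group was tested, because no value per line was used.

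**Figure D2:**
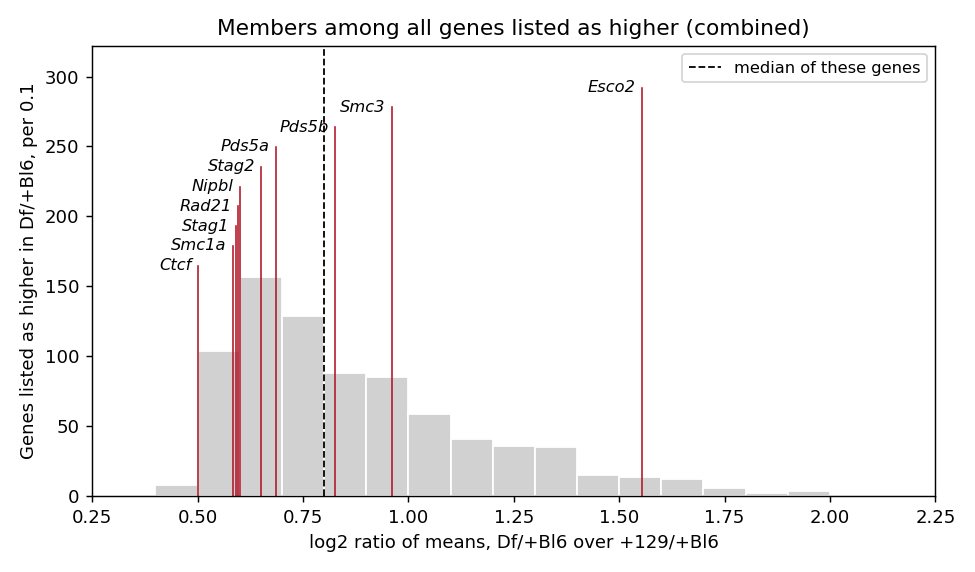
Number of genes higher in Df/+Bl6 MEFs in each 0.1 of log2 ratio of the means (grey bars, 796 genes), with the 10 genes of the group as red lines whose height only spaces the names. Ctcf lies at 0.50 and Smc3 at 0.96, Esco2 lies in the right tail at 1.55, and the dashed line is the median of the 796 genes, 0.80.

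To compare levels between the 10 genes, the means were divided by the length of the longest annotated transcript. On this scale Rad21 was the most abundant of the 10 in +129/+Bl6 MEFs, with 4660 normalized counts per kb. Smc1a followed with 2931, Pds5a with 1934, Smc3 with 1781 and Ctcf with 1751. Stag2 (1291), Nipbl (1096), Stag1 (802.4) and Pds5b (750.3) were lower, and Esco2 was last with 110.5. With the length of merged exons in place of the longest transcript, Nipbl (1096) stood above Stag2 (963.0) and Pds5b (592.2) above Stag1 (483.5). Whether neighbours in this order differ beyond the spread of the lines is unknown.

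The unequal changes altered some ratios of level per kb within the complex. Smc3 stood at 0.607 of the Smc1a level in +129/+Bl6 MEFs and at 0.790 in Df/+Bl6 MEFs. Rad21 over Smc1a was nearly the same in both genotypes, 1.59 in +129/+Bl6 and 1.61 in Df/+Bl6 MEFs. Stag2 over Stag1 was 1.61 in +129/+Bl6 and 1.68 in Df/+Bl6 MEFs. The ring subunit ratios thus differed most between genotypes for Smc3, among the pairs compared here. Pds5a over Pds5b went from 2.58 in +129/+Bl6 to 2.34 in Df/+Bl6 MEFs, and Ctcf over Rad21 from 0.376 to 0.351. Esco2 over Smc1a was 0.038 in +129/+Bl6 and 0.074 in Df/+Bl6 MEFs. The ratios depend on the length used. With merged exons Smc3 over Smc1a was 0.654 in +129/+Bl6 and 0.85 in Df/+Bl6 MEFs. In the same order Pds5a over Pds5b was then 3.25 and 2.95, and Ctcf over Rad21 0.292 and 0.274. All are ratios of RNA, and protein was not measured.

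**Figure D3:**
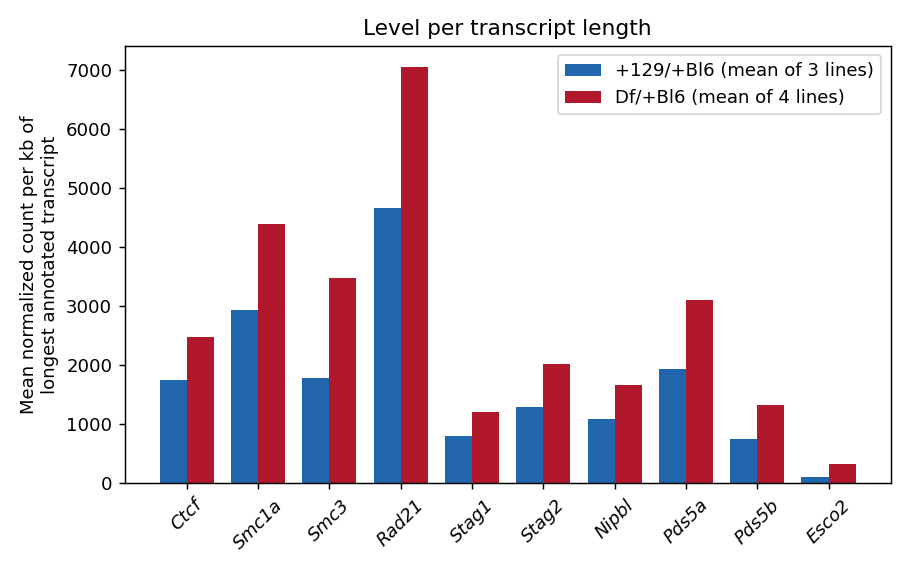
Mean normalized count per kb of the longest annotated transcript for each gene of the group in +129/+Bl6 (blue) and Df/+Bl6 MEFs (red), from 0, without error bars. Rad21 is the highest bar in both genotypes (4660 and 7046) and Esco2 the lowest (110.5 and 324.3).

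The 10 genes lie on 7 chromosomes, and 0 of them lie on chromosome 4, so none is within the deletion or on its chromosome. Smc1a and Stag2 are on the X chromosome. In the older annotation used for lengths, 5 of the 10 overlap another annotated gene. These are Ctcf, Smc1a, Stag1 and Pds5a, whose partners lie on the opposite strand, and Pds5b, which overlaps small RNA genes on either strand. The libraries were stranded, but whether reads were counted by strand is not given in the sources used here.

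In the allelic comparisons, which rest on the reads that carry a strain difference, 0 of 10 genes of the group were DE for either the 129S5 or the C57BL/6J allele. The share of the 15531 genes that were DE was 1.65% on the 129S5 side and 2.09% on the C57BL/6J side, and which genes were tested per allele is not listed. No mean per allele can therefore be given for any of the 10, and whether the rise in the combined counts came from either allele or from both is unknown. The combined and allelic comparisons use the same 7 lines.

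A wider list of 27 genes was compared with the group. Its genes load, acetylate, release, protect or cleave cohesin, set up cohesion at replication forks, or encode meiotic paralogues of cohesin subunits. Of the 27, 25 were in the count table. Of these 25, 17 were higher in Df/+Bl6 MEFs and 0 were lower, against 5.13% and 3.54% of all genes. The median log2 ratio over the 17 was 0.91. Here and in the lists that follow, a median covers the DE genes of a list and not its other genes. A ratio above that of Smc3 was found for 7 of the 17, and one above 0.80 for 10.

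Among the factors that act beside Pds5 on the bound ring, the release factor Wapal (Wapl) had means of 13539 in Df/+Bl6 and 8724 in +129/+Bl6 MEFs, giving a log2 ratio of 0.63. Cdca5 (sororin), which opposes Wapl after acetylation of Smc3, had means of 1403 and 692.0, a log2 ratio of 1.02. Wapal thus changed by about as much as Pds5a and most of the core, and Cdca5 by more. Hdac8, the Smc3 deacetylase, was not DE. Esco1, the acetyltransferase that is not bound to S phase, had means of 1893 and 1155 and a log2 ratio of 0.71, compared with 1.55 for Esco2.

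The largest ratios of the wider list were those of Sgol2 and Sgol1, genes of cohesin protection. Of the genes of cohesin protection and cleavage, 5 of 6 were higher, against 5.13% of all genes, with a median of 1.00. The shugoshin Sgol2, which shields centromeric cohesin, had means of 1511 in Df/+Bl6 and 392.5 in +129/+Bl6 MEFs, giving a log2 ratio of 1.94. Its relative Sgol1 had means of 2292 and 876.0, a log2 ratio of 1.39. Both exceeded every ring subunit in size of change. Espl1 (separase, the protease that cuts Rad21), Plk1 and the histone kinase Gsg2 (haspin) had log2 ratios of 0.91, 0.94 and 1.00. The separase inhibitor Pttg1 (securin) was not DE.

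At the replication fork, where cohesion is set up, 9 of 12 genes were higher, against 5.13% of all genes, with a median of 0.78. Dscc1, a subunit of the alternative clamp loader, had means of 288.6 in Df/+Bl6 and 125.9 in +129/+Bl6 MEFs and the largest ratio of these 9, 1.20. Wdhd1 followed with means of 3177 and 1437 and a log2 ratio of 1.14, and Rfc4 with 0.98. Tipin (0.82), Rfc5 (0.78), Timeless (0.78) and Chtf18 (0.74) had intermediate ratios, and the sliding clamp Pcna (0.67) and Rfc1 (0.60) had the smallest of the 9. Ddx11, Rfc2 and Rfc3 were not DE. Of the meiotic paralogues of cohesin subunits, Rec8 and Stag3 were in the count table and not DE, and Smc1b and Rad21l were not in it.

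Some of these genes were also DE per allele. None of the 10 was, but no difference between the lists was tested, and which genes were tested per allele is not listed. Of the 25 wider genes, 7 were higher in 129S5 reads and 4 in C57BL/6J reads. Among all genes DE per allele, 134 were higher in 129S5 reads and 181 in C57BL/6J reads. Of all 15531 genes, 1.65% were DE in either direction on the 129S5 side and 2.09% on the C57BL/6J side. With such shares, 0 of 10 is no result about the group. Espl1, Sgol1, Plk1 and Wdhd1 were higher for both alleles. The log2 ratio of Sgol1 was 1.43 (129S5) and 1.45 (C57BL/6J), and that of Wdhd1 was 1.23 and 1.14 in the same order. For these genes the allelic ratios were thus close to the combined ones.

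Of 14 genes linked to CTCF by binding or function, 13 were in the count table and 1 was DE, Top2b, the topoisomerase found at loop anchors, which was higher. This share is near that of all genes, 8.67% in either direction and 5.13% higher, and is no result about these genes. Its means were 30094 in Df/+Bl6 and 20382 in +129/+Bl6 MEFs, giving a log2 ratio of 0.56, which lies between those of Ctcf and Smc1a. The other 12, with Yy1, Ldb1, Zfp143, Maz, Med1 and Med12 among them, were not DE, and the CTCF paralogue Ctcfl was not in the table.

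The other SMC complexes were compared with cohesin by the same measure. Of all genes, 5.13% were higher in Df/+Bl6 MEFs. In condensin, which compacts mitotic chromosomes, 7 of 8 genes were higher, with a median log2 ratio of 1.47, and 4 of them exceeded Smc3. Its SMC subunits Smc2 (13861 in Df/+Bl6 and 4437 in +129/+Bl6 MEFs) and Smc4 (13926 and 5014) had log2 ratios of 1.64 and 1.47. These are larger than the ratios of the cohesin SMC subunits, 0.58 and 0.96. In the SMC5/6 complex 3 of 6 genes were higher, Smc5 with a log2 ratio of 1.11, Smc6 with 1.01 and Nsmce4a with 0.74.

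Genes of cycling cells rose in the same comparison. Of 20 such genes, 20 were higher in Df/+Bl6 MEFs, against 5.13% of all genes, with a median log2 ratio of 0.99. Their summed means were 270688 in Df/+Bl6 and 126120 in +129/+Bl6 MEFs. By count not divided by length, the highest mean of the list was that of Mki67 in Df/+Bl6 and of Rrm1 in +129/+Bl6 MEFs. Mki67, a marker of proliferating cells, had means of 48354 in Df/+Bl6 and 14644 in +129/+Bl6 MEFs and a log2 ratio of 1.72, and Rrm1 had 31105 and 17112 and 0.86. The replicative helicase genes Mcm2 to Mcm7 were all higher, with a median of 0.84. All 20 had a log2 ratio above the median of the 10 genes of the group, and 16 had one above that of Pds5b. The part of cycling cells in the higher levels of Ctcf and the cohesin genes was not tested.

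**Figure D4:**
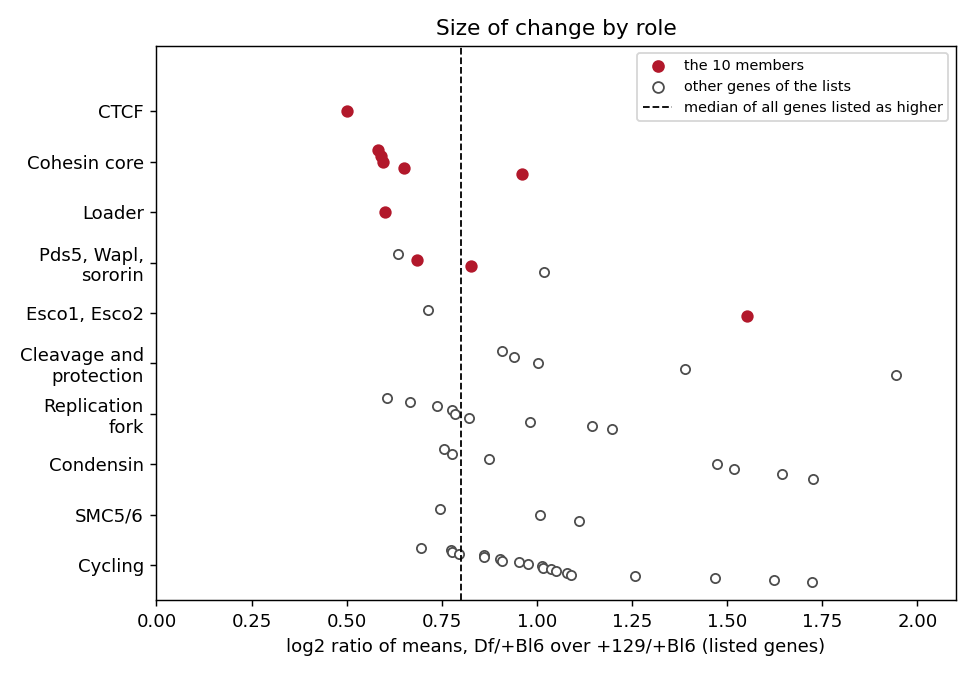
Log2 ratio of the means, Df/+Bl6 over +129/+Bl6, of each DE gene by role, with the 10 genes of the group in red, the other genes as open circles and the median of the 796 higher genes (0.80) as a dashed line. Ctcf, the loader and all core subunits but Smc3 lie left of the line, whereas the genes of cleavage and protection lie right of it; points are spread vertically only to separate them.

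Promoter windows were available for 6 of the 10 genes, Ctcf, Smc1a, Smc3, Stag1, Pds5a and Pds5b, as 250 bases before the transcript start that the RefSeq promoter table uses on GRCm38.p6. That start is not always the outermost start of the gene. The windows of Smc1a, Smc3 and Pds5a lie wholly before the gene, those of Ctcf and Pds5b reach 64 and 114 bases into it, and that of Stag1 lies within it. Since the 10 genes and the cycling genes were all higher in Df/+Bl6 MEFs, letters known from cycling gene promoters were searched on both strands. They were TTTCCCGC, TTTCGCGC, TTTGCCGC or TTTGGCGC for E2F, TTTGAA or TTCGAA for the cell cycle homology region (CHR), and CCAAT, and none of these words contains another. E2F words were in 2 of the 6 windows (Stag1 and Pds5a), CHR words in 2 (Ctcf and Pds5b) and CCAAT in 3 (Smc1a, Stag1 and Pds5b), and Smc3 had none. The matches of Stag1 and Pds5b lie inside the annotated gene. Before the gene start there remained 1 gene with an E2F word (Pds5a), 1 with a CHR word (Ctcf) and 1 with CCAAT (Smc1a), of 5 with window bases there. Of all 32851 windows of the table, each taken at its full 250 bases, 1.86% held an E2F word, 17.1% a CHR word and 33.8% CCAAT. A match describes letters only, and binding was not measured.

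The other lists were searched over full windows, whether or not these reach into the gene, and are given here for their higher genes. In a gene with several windows a word in any of them counted, unlike the shares above, which are per window. Of the 17 higher cycling genes with a window, 4 had an E2F word, 7 a CHR word and 15 CCAAT. Of the 6 higher condensin genes with a window, 2 had an E2F word, 5 a CHR word and 3 CCAAT. In the wider cohesin list 0 of 10 had an E2F word, 2 had a CHR word (Cdca5 and Espl1) and 5 had CCAAT. In the SMC5/6 complex 0 of 3 had an E2F word, 1 had a CHR word and 1 had CCAAT. Over all genes of the wider list with a window, DE or not, the numbers were 1, 7 and 10 of 18. In the same order they were 2, 6 and 3 of 7 for condensin and 1, 1 and 2 of 4 for the SMC5/6 complex. The 6 windows of the group are too few to compare shares.

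The sequences of 4 windows are shown, for Ctcf with the smallest ratio, for the SMC partners Smc1a and Smc3 with unequal ratios, and for Pds5a, which has an E2F word. Each is the strand of the gene from 5′ to 3′, without bases inside the annotated gene, and capitals mark a CHR word in Ctcf, CCAAT read on the other strand in Smc1a, and TTTGGCGC read on the other strand in Pds5a. The Ctcf stretch is chr8:105636288-105636473 and that of Smc1a chrX:152016178-152016427, both on the plus strand. The Smc3 stretch is chr19:53600146-53600395 on the plus strand and that of Pds5a chr5:65698237-65698486 on the minus strand.
Ctcf: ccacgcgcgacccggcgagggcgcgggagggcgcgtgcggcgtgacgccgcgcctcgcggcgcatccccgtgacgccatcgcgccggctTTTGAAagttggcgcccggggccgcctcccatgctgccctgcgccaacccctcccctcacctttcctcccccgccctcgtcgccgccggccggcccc
Smc1a: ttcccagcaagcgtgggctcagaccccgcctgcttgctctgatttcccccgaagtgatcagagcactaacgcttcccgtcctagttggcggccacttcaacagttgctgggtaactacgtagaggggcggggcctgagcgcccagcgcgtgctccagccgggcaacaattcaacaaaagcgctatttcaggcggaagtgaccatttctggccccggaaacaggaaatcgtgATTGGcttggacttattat
Smc3: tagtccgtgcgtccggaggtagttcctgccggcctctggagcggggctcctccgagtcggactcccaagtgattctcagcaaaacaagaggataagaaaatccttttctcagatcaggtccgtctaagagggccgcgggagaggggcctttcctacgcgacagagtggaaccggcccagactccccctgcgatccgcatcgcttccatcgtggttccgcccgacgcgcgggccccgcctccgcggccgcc
Pds5a: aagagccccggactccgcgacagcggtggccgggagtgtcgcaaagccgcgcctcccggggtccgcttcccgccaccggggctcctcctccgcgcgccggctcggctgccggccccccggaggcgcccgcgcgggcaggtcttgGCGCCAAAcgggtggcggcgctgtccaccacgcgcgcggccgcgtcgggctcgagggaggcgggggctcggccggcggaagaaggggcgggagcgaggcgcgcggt
The stretches differ in composition, with 79.0% G and C in Ctcf, 80.4% in Pds5a, 64.4% in Smc3 and 56.8% in Smc1a. Counted back from the start of the annotated gene, the CHR word of Ctcf lies at 97 to 92 bases, the CCAAT of Smc1a at 19 to 15 bases and the E2F word of Pds5a at 106 to 99 bases.

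The labels were checked against genes of the deleted interval and against cell type markers. All 6 interval genes examined were lower in Df/+Bl6 MEFs for the 129S5 allele, as Park7 with a mean of 3.78 against 1360 in +129/+Bl6 MEFs. In the combined counts 5 of the 6 were lower, with log2 ratios from -1.33 to -0.81. For the intact C57BL/6J allele 2 of the 6 were also lower, Park7 (1173 in Df/+Bl6 and 2675 in +129/+Bl6 MEFs, log2 ratio -1.19) and Acot7 (log2 ratio -0.80), whose cause was not tested. Of 10 fibroblast markers, 10 were in the count table and 1 was DE, Fn1 (fibronectin), which was lower in Df/+Bl6 MEFs with means of 2121647 and 3418220. Of the markers of other cell types, 0 of 4 endothelial, 0 of 5 macrophage, 0 of 3 epithelial and 0 of 4 skeletal muscle genes were DE. With 8.67% of all genes DE, such counts in short lists say little, and the levels of these markers were not used here. In the Schwann or neural crest list 4 of 5 genes were lower, against 3.54% of all genes, with summed means of 370.6 in Df/+Bl6 and 930.1 in +129/+Bl6 MEFs. By count not divided by length, the highest mean among these 4 was that of Erbb3 (132.1) in Df/+Bl6 and of Sox10 (326.3) in +129/+Bl6 MEFs. Their part in the levels of Ctcf and cohesin was not tested.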

How the data were processed

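The authors sequenced stranded paired-end polyA+ libraries on an Illumina Genome Analyzer IIx and used GSNAP to place reads without mismatches on the longest transcripts of Ensembl release 72 (GRCm38, C57BL/6J) and on a 129S5 version of them. Uniquely placed pairs were counted where both mates hit 1 gene, and genes were left out where both genotypes had under 10 reads per allele. As signal, the authors deposited each gene's mean normalized count per genotype, made with DESeq size factors, separately for summed, 129S5 and C57BL/6J reads. The first mean column was taken as Df/+Bl6, since the overall mean weighs it by 4 of 7 lines. These tables hold only genes past a false discovery rate of 0.05. Their columns of fold changes and p-values were not used.

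A further file has 9 columns of values without names for 7 lines. They were not assigned to lines and were not used, so the planned test between lines (limma) was not run. Its identifiers served as the list of genes tested.

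Ratios were computed with Python 3.11.15 and pandas 2.3.3 without a pseudocount, and the calculation was tested on simulated data. All 123 genes of the lists were matched to an identifier. Lengths and overlaps came from GENCODE M1 on NCBI build 37, printed positions and promoters from RefSeq on GRCm38.p6. Protein sequences were not analysed here. Named genes were the 10 members and genes of the lists. Members and lists were chosen with earlier results of these data known. The alternatives tried were pseudocounts, limits on size of change and on level, other sets of genes and merged exon lengths.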

Additional observations from a re-analysis of the deposited data

How the results depend on the processing

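Adding a pseudocount of 1 or 10 moved no log2 ratio of the 10 genes by more than 0.0289, and Esco2 moved most, from 1.55 to 1.52. With a log2 ratio of at least 0.58 required, 9 of the 10 genes still counted as higher, Ctcf being the one lost, and with at least 1 only 1 did, Esco2. Counted over the core subunits alone 5 were higher, and over the group with the wider cohesin list 27, because these sets hold fewer or more genes. The median log2 ratio was 0.60 for genes with a mean of at least 1000 in both genotypes and 0.63 with a pseudocount of 10. With merged exons in place of the longest transcript, 14 of the 20 levels per kb moved by over 10%. In +129/+Bl6 MEFs Nipbl (1096) then passed Stag2 (963.0), and Pds5b (592.2) passed Stag1 (483.5). In Df/+Bl6 MEFs Nipbl (1661) then passed Stag2 (1513) and Pds5a (3099) passed Smc3 (3034). There Pds5b lay above Stag1 with either length. Alternatives with allelic means, with a fit over lines or counts, with other filters and without each line in turn were not run. This was because no gene of the group was listed per allele and no column was assigned to a line. No paired analysis was possible because the lines carry no shared numbers. How far any mean rests on a single line, and what depth limits, is unknown.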
